A study of Mus musculus with 6 samples.

Results

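The genes described here are the aldehyde dehydrogenases (*Aldh*), aldo-keto reductases (*Akr*), alcohol dehydrogenases (*Adh*) and carbonyl reductases (*Cbr*) of mouse fibroblasts. The members are all rows of the expression table whose symbol starts with one of these 4 stems followed by a digit. This naming rule gave 40 of 19078 genes. The 4 families themselves were chosen with earlier results of these data known. They comprise 17 *Aldh*, 15 *Akr*, 5 *Adh* and 3 *Cbr* genes.

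The study compared mouse fibroblasts (MF) that overexpress *Ms4a15*, a membrane protein gene of the MS4A family, with control MF, and it asked how *Ms4a15* protects cells from ferroptosis, a cell death driven by lipid peroxidation. Each group had 3 libraries of poly(A) RNA. Per the study's methods, the parental line was an immortalized, conditional *Gpx4* -/- mouse embryonic fibroblast line with Cre-ERt2 and the CRISPR activation system, so both groups share these alleles and transgenes. *Ms4a15* OE cells were a selected pool carrying an activating guide, control cells had received empty lentivirus per those methods, and the labels call the control genotype wild type. Neither group was treated with a ferroptosis inducer, as far as the labels say. The labels do not say whether the 3 libraries of a group came from separate cultures, so the p-values measure only the spread between these libraries, which may be technical.

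Aldehyde dehydrogenases use NAD or NADP to oxidize aldehydes to carboxylic acids. Aldo-keto reductases, carbonyl reductases and alcohol dehydrogenases act on the same kind of carbonyl group and mostly reduce it to, or make it from, an alcohol. Their substrates include reactive aldehydes released from peroxidized lipids, retinal, steroids, sugars and intermediates of amino acid and folate metabolism, so members of 1 family can serve unrelated pathways.

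The deposited table gave 1 mean normalized count over the 6 libraries, 1 log2 fold change (*Ms4a15* OE over control, above 0 where OE was higher) and its standard error (SE) per gene. A normalized count is a read count divided by the library's size factor, a measure of its depth. The size factors could be worked out from the means of genes with a single read, and were 0.887, 0.938 and 1.02 in *Ms4a15* OE and 0.946, 1.11 and 1.14 in control. Total read counts are unknown. For 22 members with a mean under 500 the whole read count of every library could be recovered from the deposited mean, fold change and SE. Where a group had very few reads, the mean alone was used. These counts restate the deposited values per library and are not independent of them. Libraries are given by rising size factor within a group, *Ms4a15* OE before control, since the table carries no replicate numbers. For the other members the group means implied by the mean and fold change are given, which carry no SD. A gene was called when a Wald test recomputed from the fold change and SE gave an adjusted p (Benjamini-Hochberg over all 19078 genes) under 0.05. *Ms4a15* itself had a log2 fold change of 12.84 (SE 1.18, Wald test, adjusted p = 2.14e-26), at least 449-fold over a floor of 3 counts per library in control.

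Of the 40 members, 25 (62.5%) were called, 18 (45.0%) higher and 7 (17.5%) lower in *Ms4a15* OE. Among all 19078 genes 42.9% were called, 21.5% higher and 21.5% lower. Calls were more frequent among well expressed genes. With a mean of 100 or more, 19 of 24 members (79.2%) were called against 65.6% of all such genes. Of these members 13 (54.2%) were higher, against 30.7% of all such genes, and 6 (25.0%) were lower, against 34.9%. Their median log2 fold change was 0.31, while that of all such genes was -0.02. A change of 1 or more on the log2 scale, up or down, was found in 5 of the 24 (20.8%) and in 7.34% of all such genes. The 5 genes were *Aldh3a1*, *Akr1c12* and *Aldh4a1*, which rose, and *Aldh5a1* and *Akr1c14*, which fell. All these counts come from 1 comparison of 6 libraries, and genes are not independent of each other. In a Wald test against a 1.2-fold change 16 of the 25 calls held, and those of *Adh5*, *Akr1a4*, *Akr1b10*, *Aldh1a7*, *Aldh1l2*, *Aldh7a1*, *Aldh9a1*, *Cbr1* and *Cbr2* did not. Among the 16 members with a mean under 100, 6 lay under the floor in both groups.

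**Figure D1:**
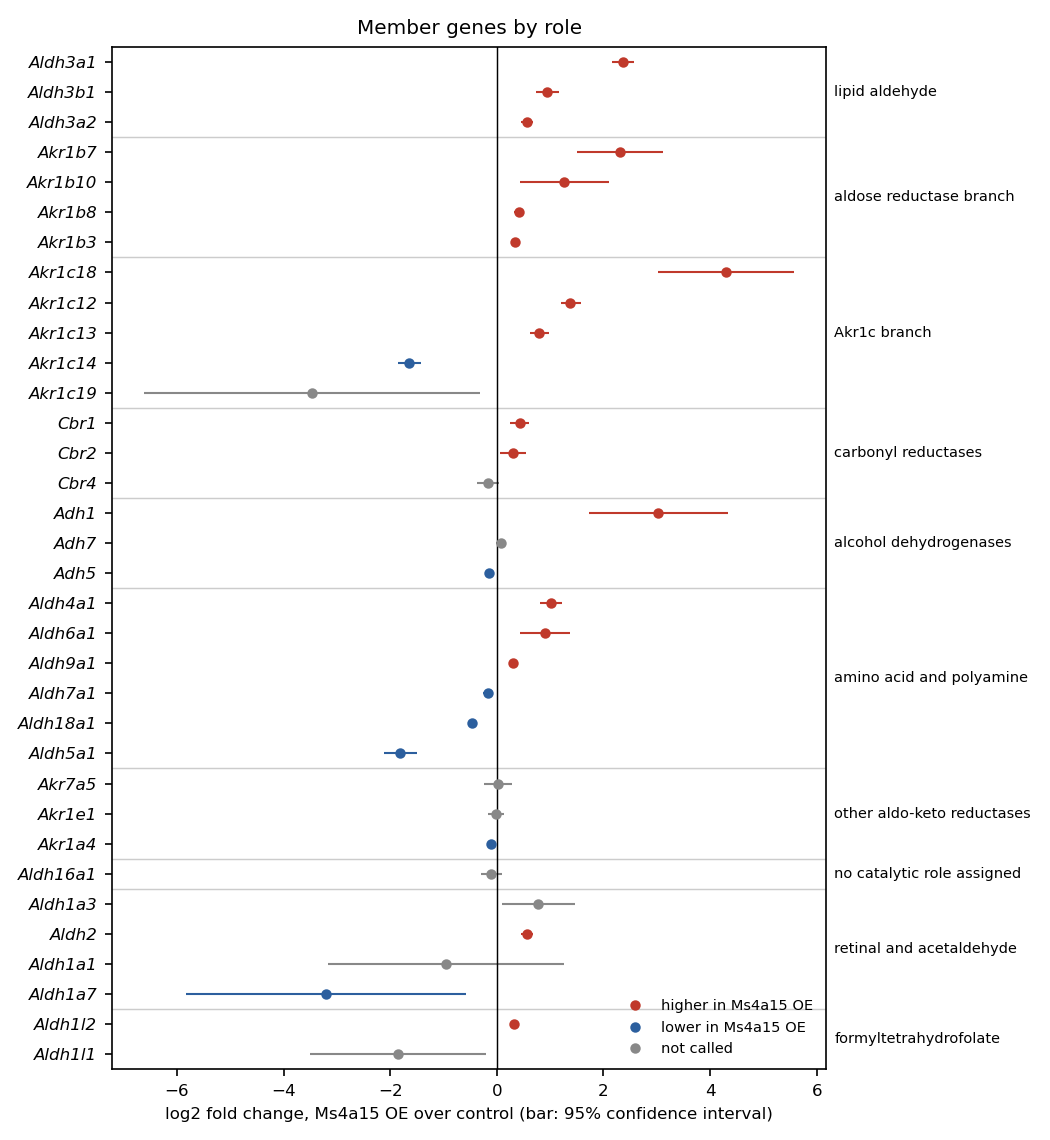
Log2 fold change of the 34 members above the floor of 3 counts per library in at least 1 group, grouped by role, with bars for the 95% confidence interval (red, called higher in *Ms4a15* OE; blue, called lower; grey, not called). The 3 lipid aldehyde and 4 aldose reductase genes lie to the right of 0, whereas the amino acid group is split 3 to 3.

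**Figure D2:**
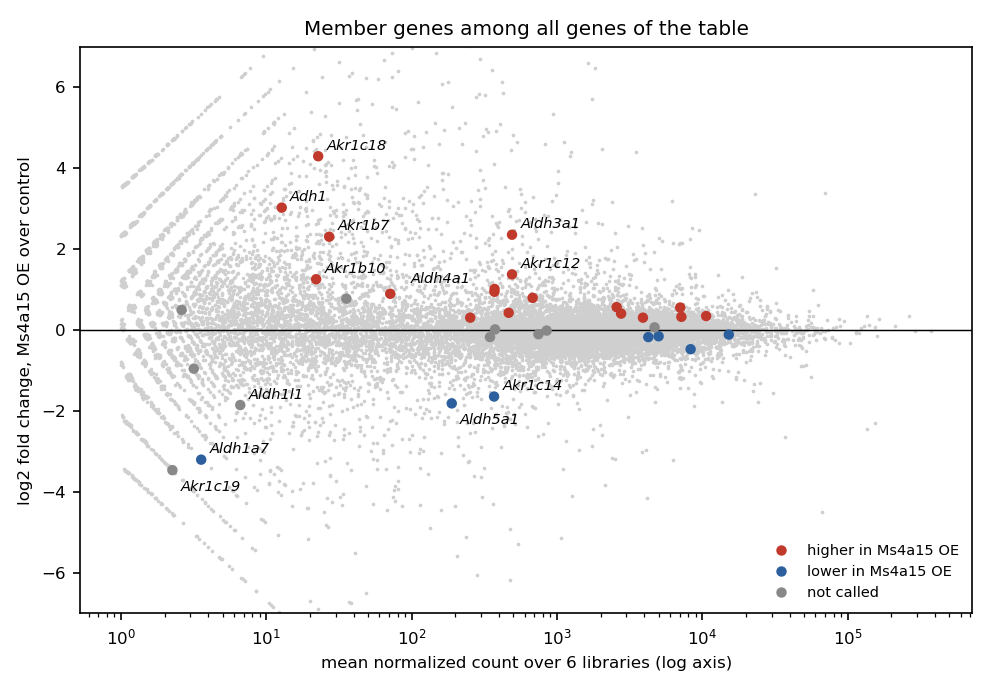
Log2 fold change against the mean normalized count of the 6 libraries (log axis) for all genes of mean 1 or above (light grey, vertical axis limited to -7 to 7) and for the members (coloured by call). Names are given for members that moved by 1 or more on the log2 scale. *Akr1c18*, *Adh1*, *Akr1b7* and *Akr1b10* (above 0) and *Akr1c19*, *Aldh1a7* and *Aldh1l1* (below 0) have means under 100, where the spread of all genes is wide.

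The *Akr1c* genes are introduced with their start regions, since in this group clear changes of both signs stood side by side. The 250 bases before the RefSeq start site (GRCm38.p6, 5′ to 3′ on the strand of the gene) are shown for *Akr1c12* (chr13:4279400-4279649, minus strand), *Akr1c13* (chr13:4190937-4191186, plus strand) and *Akr1c14* (chr13:4059341-4059590, plus strand). These RefSeq start sites lie inside the gene spans that GENCODE gives (below), only just for *Akr1c12* and *Akr1c13* and far inside for *Akr1c14*. Capitals mark the longest run of bases, 75 in length, that *Akr1c12* and *Akr1c13* share.
Akr1c12: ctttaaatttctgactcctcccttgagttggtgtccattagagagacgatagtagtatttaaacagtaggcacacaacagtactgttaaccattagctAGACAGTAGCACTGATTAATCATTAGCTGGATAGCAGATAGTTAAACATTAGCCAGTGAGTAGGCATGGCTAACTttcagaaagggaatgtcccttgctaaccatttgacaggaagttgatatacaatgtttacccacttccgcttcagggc
Akr1c13: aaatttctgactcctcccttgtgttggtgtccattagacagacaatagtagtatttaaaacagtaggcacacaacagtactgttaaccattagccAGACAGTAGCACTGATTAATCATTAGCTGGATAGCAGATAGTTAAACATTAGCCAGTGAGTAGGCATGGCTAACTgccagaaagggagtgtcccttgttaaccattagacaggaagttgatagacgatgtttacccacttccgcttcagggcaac
Akr1c14: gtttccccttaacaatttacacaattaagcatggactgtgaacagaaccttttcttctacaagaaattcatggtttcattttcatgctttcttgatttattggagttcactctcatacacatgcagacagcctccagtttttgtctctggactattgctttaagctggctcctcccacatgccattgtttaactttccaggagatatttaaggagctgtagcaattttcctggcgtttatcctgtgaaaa

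In a global alignment *Akr1c12* and *Akr1c13* were identical in 235 of 254 columns (92.5%) of this region. *Akr1c14*, which fell, matched them in 43.9% and 46.0% of columns, and *Akr1c18*, which rose, in no more than 45.5% and 45.9%. The start region of *Akr1c19*, at a log2 of -3.46 but not called, was closer to that of the pair, at 56.9% and 59.0%. The start regions of *Akr1b7*, *Akr1b8* and *Akr1b10*, which all rose, matched each other in 43.5% to 47.5% of columns. No unrelated regions were aligned, so shares of this size have no baseline here. All these shares are descriptions of the reference, and no binding or chromatin was measured here.

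The *Akr1c* genes encode hydroxysteroid dehydrogenases and related reductases, and 6 of them lie with *Akr1e1* in a single stretch of chromosome 13 (chr13:4049011-4609174, 560 kb, GRCm38). Of the 7 genes of this branch, *Akr1cl* included, 4 (57.1%) were called, 3 higher and 1 lower, which is between the 42.9% called of all genes and the 65.6% of those with a mean of 100 or more. *Akr1c18*, the 20alpha-hydroxysteroid dehydrogenase that inactivates progesterone (chr13:4132615-4150654, minus strand), had 30, 45 and 49 reads in *Ms4a15* OE and 3, 2 and 2 reads in control, or 43.3 ± 8.16 and 2.25 ± 0.801 normalized counts (SD, n = 3). All *Ms4a15* OE libraries were far above the control libraries, which lay at about the floor of 3 counts. The log2 fold change was 4.30 (SE 0.65, Wald test, adjusted p = 2.13e-10), the highest of the members, and the ratio of the summed reads was 19.9 with an exact 95% interval of 9.35 to 50.4 that covers counting error only.

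*Akr1c12*, a reductase close in sequence to *Akr1c13* (chr13:4268176-4279433, minus strand), had normalized counts of 708, 679 and 739 in *Ms4a15* OE and 276, 274 and 267 in control (709 ± 30.2 and 272 ± 4.88, SD, n = 3). Replicates lay within a narrow band in each group and the bands were far apart. It rose 2.61-fold (log2 1.38, SE 0.09, Wald test, adjusted p = 5.97e-47). *Akr1c13* (chr13:4191150-4205596, plus strand) rose 1.74-fold, from an implied mean of 496 to 865 (log2 0.80, SE 0.09, Wald test, adjusted p = 2.15e-17). The 95% confidence intervals of the log2 values, 1.2 to 1.57 and 0.62 to 0.98, did not overlap; the difference itself was not tested. The transcripts of this pair share 11.5% (*Akr1c12*) and 9.36% (*Akr1c13*) of their 100-base windows exactly, so a part of their reads could have been assigned to either gene or discarded.

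*Akr1c14*, the 3alpha-hydroxysteroid dehydrogenase (chr13:4049011-4090688, plus strand), went the other way. It had normalized counts of 161, 189 and 188 in *Ms4a15* OE and 560.0, 567 and 551 in control (179 ± 15.6 and 559 ± 8.09, SD, n = 3). Every control library was above every *Ms4a15* OE library. It fell by 1.64 on the log2 scale (SE 0.11, Wald test, adjusted p = 1.6e-47), so control was 3.11-fold higher, and its fold change lay at percentile 1.15 of all genes whose mean was 100 or more. *Akr1c19* had 0, 0 and 1 reads in *Ms4a15* OE and 6, 3 and 4 in control, and was not called (log2 -3.46, SE 1.61, Wald test, adjusted p = 0.0705). *Akr1c20* had 1 read in all and *Akr1cl*, which lies on chromosome 1, had 4, and neither could be compared at this depth. The 20 genes on each side of the *Akr1c* genes had a median log2 value of 0.18.

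**Figure D3:**
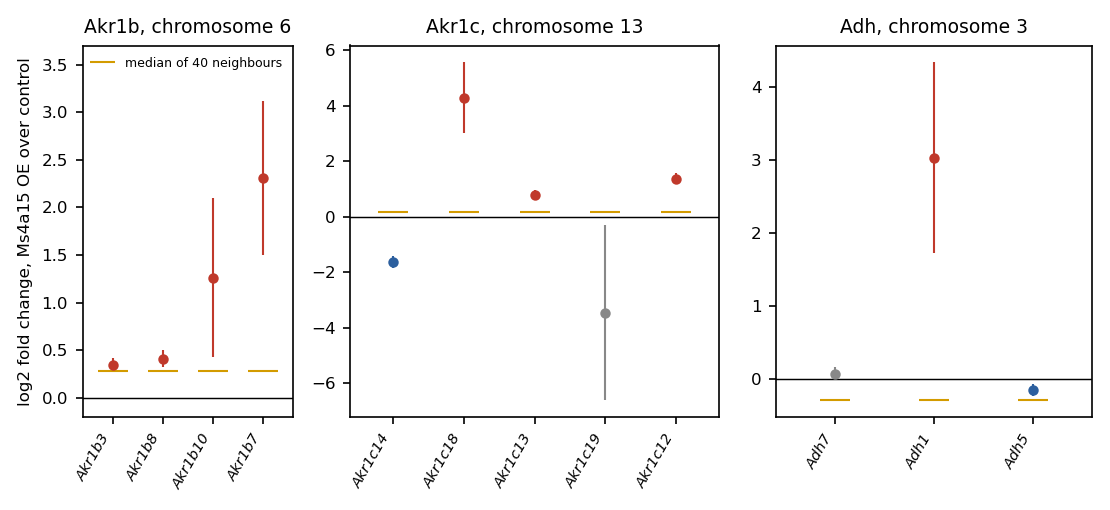
Log2 fold change (points, with 95% confidence intervals) of the *Akr1b*, *Akr1c* and *Adh* genes above the floor, in their order along chromosomes 6, 13 and 3; the vertical scales differ. Yellow bars give the median of the 40 neighbouring genes, which is 0.28, 0.18 and -0.29 in the 3 regions.

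In the aldose reductase branch (*Akr1b*) 4 of 4 members were called higher, against 21.5% of all genes and 30.7% of those with a mean of 100 or more, which 2 of the 4 reached. They lie in 121 kb of chromosome 6 (chr6:34302434-34423142), where the neighbouring genes had a median of 0.28. *Akr1b3*, aldose reductase itself, which turns glucose into sorbitol and also reduces lipid-derived aldehydes, had the most reads, with implied means of 11930 in *Ms4a15* OE and 9330 in control (log2 0.35, SE 0.03, Wald test, adjusted p = 1.71e-23). *Akr1b8*, a reductase first found as a growth factor-regulated fibroblast protein, had 3150 and 2375 (log2 0.41, SE 0.05, Wald test, adjusted p = 4.33e-17). The rises of these 2 genes were small, and after the median of the neighbours was subtracted they were 0.08 (Wald test, adjusted p = 0.062) and 0.13 (Wald test, adjusted p = 0.0159).

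The scarce genes of the branch showed larger folds. *Akr1b7*, known from the vas deferens and adrenal gland, had normalized counts of 37.2, 49.0 and 49.0 in *Ms4a15* OE and 9.51, 8.14 and 9.68 in control (45.1 ± 6.79 and 9.11 ± 0.845, SD, n = 3), a rise of 4.96-fold (log2 2.31, SE 0.42, Wald test, adjusted p = 1.29e-07). *Akr1b10* had 23.7, 34.1 and 35.3 against 15.9, 13.6 and 9.68 (31.0 ± 6.37 and 13.03 ± 3.12, SD, n = 3), a rise of 2.4-fold (log2 1.26, SE 0.43, Wald test, adjusted p = 0.00819) that did not pass the test against a 1.2-fold change (adjusted p = 0.0924). In both genes the groups did not overlap, although the lowest *Ms4a15* OE library of *Akr1b10* was nearer to the highest control library than to the other *Ms4a15* OE libraries. Per kilobase of merged exons the mean normalized count was 1270 for *Akr1b3* and 1840 for *Akr1b8*, against 21.1 for *Akr1b7* and 6.23 for *Akr1b10*, so the large folds belonged to genes at a low level.

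Of the dehydrogenases of lipid-derived aldehydes 3 of 3 rose, against 30.7% of all genes in their range of means (100 or more). *Aldh3a1*, which oxidizes medium-chain and lipid peroxidation aldehydes and is abundant in the cornea, lies at chr11:61207537-61218421 (GRCm38, plus strand). It had normalized counts of 836, 796 and 834 in *Ms4a15* OE and 141, 168 and 169 in control (822 ± 22.5 and 159 ± 16.2, SD, n = 3). The groups were separated by a gap many times their own spread. The rise was 5.14-fold (95% confidence interval 4.46 to 5.93, log2 2.36, SE 0.10, Wald test, adjusted p = 3.13e-111), the highest fold change of the members with a mean of at least 100, at percentile 98.6 of all such genes.

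Its neighbour *Aldh3a2*, the fatty aldehyde dehydrogenase of the endoplasmic reticulum (chr11:61223417-61267464, minus strand), rose less, from an implied mean of 2077 to 3073 (log2 0.57, SE 0.05, Wald test, adjusted p = 9.73e-25). *Aldh3b1*, which oxidizes medium- and long-chain aldehydes, had 544, 470.0 and 455 against 253, 267 and 239 (490 ± 47.4 and 253 ± 13.7, SD, n = 3) and rose 1.93-fold (log2 0.95, SE 0.11, Wald test, adjusted p = 8.02e-17). The first *Ms4a15* OE library was the highest, but all 3 were above the control libraries. Summed over the 3 genes, the implied means were 4385 in *Ms4a15* OE and 2490 in control.

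**Figure D4:**
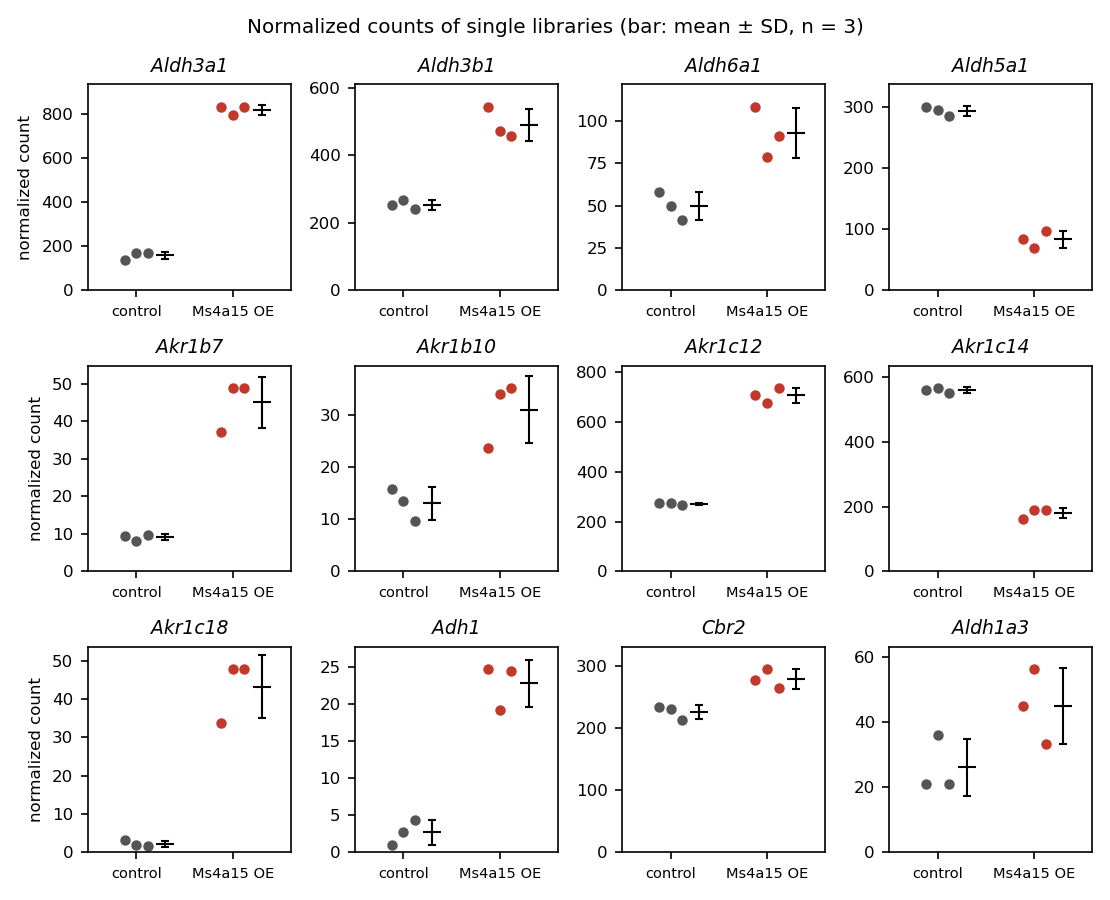
Normalized counts of every library for 12 members whose reads could be recovered (grey, control; red, *Ms4a15* OE; black bar, mean ± SD, n = 3; each vertical axis starts at 0 and has its own scale). The genes shown were picked, and all but *Aldh1a3* were called, so groups that lie apart are largely given by that choice. In the panel of *Aldh1a3* 1 control library at 36.2 lies above 1 *Ms4a15* OE library at 33.3. Of all 22 recovered members 14 had groups that did not overlap. The share over all genes was not worked out.

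Of the 5 dehydrogenases listed under acetaldehyde and retinal 2 were called, 1 higher and 1 lower, against 42.9% of all genes. Only *Aldh2* had a mean of 100 or more, where 65.6% of all genes were called. *Aldh2*, the mitochondrial enzyme that clears acetaldehyde and also 4-hydroxynonenal, rose 1.47-fold, from an implied mean of 5696 to 8399 (log2 0.56, SE 0.05, Wald test, adjusted p = 1.04e-23), while its neighbours on chromosome 5 had a median of -0.22. *Aldh1a3*, which makes retinoic acid from retinal, had 45.1, 56.5 and 33.3 in *Ms4a15* OE and 21.1, 36.2 and 21.1 in control (45.0 ± 11.6 and 26.1 ± 8.68, SD, n = 3), with overlapping groups, and was not called (log2 0.78, SE 0.35, Wald test, adjusted p = 0.0594).

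*Aldh1a1*, another retinal dehydrogenase, had 3, 2 and 1 reads against 6, 1 and 6, too few to compare. Its tandem neighbour *Aldh1a7* on chromosome 19 had 0, 1 and 1 reads in *Ms4a15* OE and 9, 6 and 5 in control, and was called lower (Wald test, adjusted p = 0.0407). The ratio of its summed reads, control over *Ms4a15* OE, was 8.92 with an exact 95% interval of 2.17 to 78.7 for counting error. This call rests on 22 reads in all and did not pass a test against a 1.2-fold change. *Aldh8a1*, which acts in tryptophan breakdown, had 1 to 6 reads in every library and was not called. *Aldh2* made up nearly all of the group's implied sum of 8449 in *Ms4a15* OE and 5735 in control.

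All 6 dehydrogenases of amino acid and polyamine metabolism were called, 3 higher and 3 lower. At a mean of 100 or more, which 5 of them reached, 65.6% of all genes were called, 30.7% higher and 34.9% lower. The pair that handles pyrroline-5-carboxylate, the intermediate between glutamate and proline, was split. *Aldh4a1*, which turns it into glutamate in mitochondria, rose 2.03-fold, from an implied mean of 246 to 498 (log2 1.02, SE 0.11, Wald test, adjusted p = 1.82e-20). *Aldh18a1*, which makes it from glutamate on the way to proline, fell by 0.47 on the log2 scale, from 9660 to 6965 (SE 0.04, Wald test, adjusted p = 5.74e-37), in a region of chromosome 19 whose neighbours had a median of -0.35. After that median was subtracted it stood at -0.12 (Wald test, adjusted p = 0.00336).

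*Aldh5a1*, the succinate semialdehyde dehydrogenase that completes the breakdown of the transmitter GABA (chr13:24907579-24937661, minus strand), fell furthest among members with a mean of at least 100. It had 84.6, 69.3 and 96.9 normalized counts in *Ms4a15* OE and 301, 295 and 286 in control (83.6 ± 13.9 and 294 ± 7.65, SD, n = 3). The 3 control libraries were close to each other and far above every *Ms4a15* OE library. Control was 3.51-fold higher (log2 -1.81, SE 0.16, Wald test, adjusted p = 3.2e-29), at percentile 0.987 of genes with such means. *Akr7a5*, an aldo-keto reductase that acts on the same succinate semialdehyde, was not called (log2 0.02, 95% confidence interval -0.24 to 0.28, Wald test, adjusted p = 0.925).

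*Aldh6a1*, the methylmalonate semialdehyde dehydrogenase of valine breakdown, had 108, 78.9 and 91.1 against 58.1, 49.7 and 41.4 (92.7 ± 14.8 and 49.7 ± 8.38, SD, n = 3) and rose 1.87-fold (log2 0.90, SE 0.24, Wald test, adjusted p = 5.43e-04). All 3 *Ms4a15* OE libraries were above the control libraries. *Aldh9a1*, which serves carnitine synthesis and oxidizes aminobutyraldehydes, rose from 3491 to 4319 (log2 0.31, SE 0.04, Wald test, adjusted p = 2.32e-12). *Aldh7a1*, of lysine breakdown, was called lower at 4004 against 4500 (log2 -0.17, SE 0.04, Wald test, adjusted p = 1.63e-04), but its neighbours on chromosome 18 had a median of -0.40 and relative to them it was higher by 0.24.

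The formyltetrahydrofolate dehydrogenases, which release carbon dioxide and tetrahydrofolate, are a mitochondrial and a cytosolic enzyme. The mitochondrial *Aldh1l2* rose from an implied mean of 6372 to 7988 (log2 0.33, SE 0.04, Wald test, adjusted p = 5.29e-17). The cytosolic *Aldh1l1* had 6, 1 and 1 reads in *Ms4a15* OE and 9, 11 and 13 in control and was not called (log2 -1.85, SE 0.84, Wald test, adjusted p = 0.0638). A single *Ms4a15* OE library carried most of that group's reads, and the log2 ratio of the means ranged from -3.33 to -1.39 when 1 library was left out. *Aldh16a1*, a family member without the catalytic cysteine, was not called (log2 -0.10, 95% confidence interval -0.29 to 0.10, Wald test, adjusted p = 0.504).

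The alcohol dehydrogenases lie in 238 kb of chromosome 3 (chr3:138217760-138455499), whose neighbours had a median of -0.29. *Adh1*, the classical ethanol and retinol dehydrogenase of liver, had 22, 18 and 25 reads in *Ms4a15* OE and 1, 3 and 5 in control (22.8 ± 3.16 and 2.72 ± 1.67 normalized counts, SD, n = 3), with all *Ms4a15* OE libraries well above control. Its log2 fold change was 3.03 (SE 0.67, Wald test, adjusted p = 2.44e-05), and the ratio of summed reads was 8.09 with an exact 95% interval of 4.01 to 18.5 for counting error. The abundant genes of the cluster moved little. *Adh5*, the glutathione-dependent formaldehyde dehydrogenase, was called lower at 4750.0 against 5261 (log2 -0.15, SE 0.04, Wald test, adjusted p = 0.00112), and was higher than its neighbours by 0.15. *Adh7*, which oxidizes retinol and ethanol and is known from stomach, was not called at 4812 against 4580.0 (log2 0.07, 95% confidence interval -0.02 to 0.16, Wald test, adjusted p = 0.232). Relative to its neighbours *Adh7* was higher by 0.37 (Wald test, adjusted p = 2.72e-14). *Adh4* and *Adh6a* had a single read each.

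Of the carbonyl reductases, *Cbr1*, the cytosolic enzyme that reduces quinones, prostaglandins and lipid aldehydes, rose 1.35-fold, from 396 to 534 (log2 0.43, SE 0.09, Wald test, adjusted p = 1.55e-05). *Cbr2*, a mitochondrial enzyme best known from lung, had 279, 296 and 264 in *Ms4a15* OE and 235, 231 and 213 in control (279.8 ± 15.97 and 226 ± 11.7, SD, n = 3), groups that did not overlap but lay close together (log2 0.31, SE 0.12, Wald test, adjusted p = 0.0327). *Cbr4*, of mitochondrial fatty acid synthesis, was not called (log2 -0.17, SE 0.11, Wald test, adjusted p = 0.227). Of the remaining aldo-keto reductases, those with more than a single read were near 0. *Akr1a4*, the aldehyde reductase that GENCODE names *Akr1a1*, had the highest level per kilobase of the members at 5530 and was called lower by 0.11 on the log2 scale (Wald test, adjusted p = 0.00978). *Akr1e1*, beside the *Akr1c* genes, was not called (log2 -0.01, 95% confidence interval -0.16 to 0.14, Wald test, adjusted p = 0.942), and *Akr1d1*, the steroid 5beta-reductase, had 1 read.

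Several members are textbook targets of the antioxidant transcription factor NRF2, so the 250 bases before each RefSeq start site were searched for the core of its element, TGACNNNGC, on both strands. The 33 members with an entry had 36 promoters, of which 3 (8.33%) held a match, against 10.2% of 32851 mouse promoters. The 3 genes were *Aldh9a1* (TGACTAGGC, 87 bases before the start site, chr1:167349904-167349912), *Adh6a* and *Akr1cl*. The share among the members' promoters was thus close to that in all promoters. No match says only that these letters are not in this window.

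Another 3 gene lists, chosen from textbook roles with earlier results of these data known, were read beside the members. Their shares of called genes are to be read against 42.9% of all genes and 65.6% of those with a mean of 100 or more. The lists are selections: *Rdh10* and *Dhrs3* stand on 2 of them, and *Dhrs9*, a retinol dehydrogenase with a log2 fold change of 4.31, named after its value was seen, stands on none. Of 30 enzymes outside the 4 families that also handle carbonyls, quinones or their conjugates, 23 (76.7%) were called, 15 higher and 8 lower (median log2 0.33), and 20 of the 22 with a mean of 100 or more. Among these 22 listed genes, the largest rises were those of the oxidases *Aox1* (2.22, SE 0.12) and *Xdh* (2.10, SE 0.05), and the largest falls those of *Kcnab2* (-1.03, SE 0.07), a potassium channel subunit of the aldo-keto reductase fold, and the glutathione transferase *Gstp1* (-0.84, SE 0.05). Of the retinoic acid pathway 15 of 20 listed genes were in the table and 10 (66.7%) were called, 6 higher and 4 lower, and 8 of the 8 with a mean of 100 or more. Among these 8, the largest rises were those of *Cyp26b1*, which degrades retinoic acid, at 2.28 (SE 0.14) and *Rara*, a receptor, at 0.52 (SE 0.09). The largest falls were those of the carrier *Fabp5* at -1.42 (SE 0.05) and the retinoic acid-responsive *Tgm2* at -1.22 (SE 0.06). Larger rises were called at lower means, for *Stra6* at 6.48 (SE 1.25, mean 15.2) and *Rarres2* at 3.88 (SE 1.3, mean 4.86). Of the enzymes that share substrates with the amino acid, folate and lipid members, 26 of 28 were in the table and 15 (57.7%) were called, 11 higher and 4 lower, all of them among the 19 with a mean of 100 or more. They included *Hibadh*, which acts before *Aldh6a1* in valine breakdown, at 0.75 (SE 0.05), *Prodh*, which makes the substrate of *Aldh4a1* from proline, at 0.45 (SE 0.16), the folate enzyme *Mthfd2l* at -0.53 (SE 0.08) and *Acsl3*, which activates fatty acids, at -0.46 (SE 0.05). All folds in this paragraph are log2 values with an adjusted p under 0.05 in the Wald test.

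The fibroblast label was checked against marker genes. Of 14 fibroblast markers 13 were in the table and 12 had a mean of at least 10; *Vim* and *Fn1* had means of 115100 and 114200 and were not called, while 6 markers were lower in *Ms4a15* OE, with *Col1a1* at a log2 of -4.50 and *Pdgfrb* at -3.83, and 4 were higher, *Dcn* at 5.24, *S100a4* at 1.37, *Thy1* at 0.69 and *Pdgfra* at 0.60. The summed implied means of the list were 345300 in *Ms4a15* OE and 699400 in control, and 297600 and 342900 without *Col1a1* and *Col1a2*. Markers of other cell types were at low sums, in *Ms4a15* OE and control respectively 234 and 137 for epithelium (*Epcam* at a mean of 0.176), 21.1 and 28.8 for hepatocytes (*Alb* at a mean of 0.163), 194 and 104 for adipocytes, 1719 and 485 for myeloid cells and 239.6 and 41.7 for endothelium. Without *Lyz2* the myeloid sums were 693 and 444. Called higher were 2 of 8 epithelial (*Krt8*, *Krt14*), 0 of 5 hepatocyte (also 0 at an unadjusted Wald p under 0.05), 2 of 6 adipocyte (*Cidec*, *Fabp4*), 2 of 6 myeloid (*Lyz2* at a log2 of 4.65, *Cd68* at 1.96) and 3 of 6 endothelial markers (*Cdh5* at 2.85, *Pecam1* at 2.04, *Vwf* at 1.81), and none of these lists had a marker called lower. The other markers of each list were not called. Over all genes 21.5% were called higher, and 30.7% of those with a mean of 100 or more. *Cidec* stood at a log2 of 7.90, over an implied control mean of 0.338 that lay under the floor, and *Fabp4* at 1.79. The 3 remaining endothelial markers lay under the floor in both groups, so each endothelial marker that could be measured rose. The uncalled myeloid markers were *Csf1r* at 1.25, *Itgam* at 0.23, *Cd14* at 0.19 and *Ptprc* at -0.99. The part of the called markers in the members' changes was not tested. In bulk samples fewer cells of a type and less RNA per cell cannot be told apart.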

How the data were processed

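Poly(A) RNA of 3 *Ms4a15* OE and 3 control MF libraries was sequenced on an Illumina HiSeq4000. Per the study's methods the authors aligned reads to mm10 with STAR, obtained read counts from HTSeq-count and ran DESeq2 on them; the submitters' processing notes name TopHat, Cufflinks and Cuffdiff as well. Sources also differ on read length and RNA kit. The deposited table holds 1 row per gene with the mean normalized count of all 6 libraries (a signal that the authors scaled by size factors) and the authors' own comparison. Of the latter, the deposited log2 fold change and its standard error were used, because no values of single libraries are given; the deposited p-values, adjusted p-values and direction were not used. The estimates are therefore those of the authors' fit, and only the tests were computed here.

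Wald tests (scipy 1.17.1) were adjusted over all 19078 genes by the Benjamini-Hochberg method. Implied group means were derived from mean and fold change. Read counts were recovered as a set of 6 whole counts, accepted only where a single set met the conditions. It had to match the printed mean to 10 digits. It also had to match the fold change to within 1e-05 on the log2 scale (2e-06 or 5e-07 for higher means). Where a group had too few reads for this, the mean alone decided. That held for *Aldh1a7*, *Akr1c19*, *Akr1c20*, *Akr1cl*, *Akr1d1*, *Adh4* and *Adh6a*. The group of each size factor came from the sign of the fold change of genes with 1 read, not from sample names. Recovery was tried for 26 members and left 4 without a single solution (*Akr7a5*, *Aldh4a1*, *Cbr1*, *Cbr4*); 14 with a mean of 500 or more were not tried. Recovery was also tried on other genes, drawn from those whose unadjusted Wald p was not very small. Genes that changed as clearly as *Aldh3a1* or *Akr1c14* were thus left out. Recovery gave a single solution, which is not a check that it was right, for 40 of 40 genes with a mean of 1 to 10. The same held for 40 of 40 at 10 to 100. At a mean of 100 to 200 it did so for 39 of 40. This check went no higher, whereas recovered members reached a mean of 491. Coordinates are from GENCODE M21 (GRCm38), start regions from RefSeq (GRCm38.p6).

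The naming rule fixed the members, and each was placed under 1 role, which was a choice. The choice of these 4 families as a set, and of the other lists, was made with earlier results of these data known. Named were members called and above 3 counts per library in at least 1 group, their close paralogs and members of the same cluster. Members whose call changed under an alternative were named too. Of the other lists, up to 4 genes with the largest called rises and falls at a mean of at least 100 were named. The called retinoic acid genes under that mean were added. Members under the floor are given by their reads alone. Marker lists of fibroblasts and 5 other cell types are given by their counts and sums. Alternatives were adjustment over genes with a mean of at least 10, a test against a 1.2-fold change, a minimum log2 of 1, centring on the median, subtraction of the median of 20 neighbouring genes on each side and, added after seeing the data, leaving out single libraries.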

Additional observations from a re-analysis of the deposited data

How the results depend on the processing

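The count of 25 members called was 25 of the 30 members kept when p-values were adjusted over genes with a mean of at least 10 (*Aldh1a7* fell out and *Aldh1a3* came in), 25 after centring and 27 after subtraction of the neighbours' median. It was 16 in the test against a 1.2-fold change and 10 when a change of 1 or more on the log2 scale was asked for, which are stricter by construction. These 2 settings left 15 and 7 of the 23 called carbonyl enzymes outside the families and 6 and 0 of the 15 called partner enzymes, and the second left 5 of the 10 called retinoic acid genes. Over all genes 42.9% were called as reported and after centring, 62.1% of 12914 genes with the mean of at least 10, 45.6% of 14651 genes with neighbours, 18.8% in the 1.2-fold test and 10.2% with the minimum change. The all-gene counts were 8187, 8185, 8024, 6677, 3591 and 1944 in that order. The 9 members lost in the 1.2-fold test were *Adh5*, *Akr1a4*, *Akr1b10*, *Aldh1a7*, *Aldh1l2*, *Aldh7a1*, *Aldh9a1*, *Cbr1* and *Cbr2*. Subtraction of the neighbours' median turned the log2 value of *Adh5* to 0.15 (adjusted p = 0.00117), of *Aldh7a1* to 0.24 (adjusted p = 6.66e-08) and of *Cbr4* to 0.20 (adjusted p = 0.112), took *Akr1b3* to 0.08 and brought *Adh7*, *Akr1e1* and *Aldh1l1* past the threshold. The cause was not tested. Leaving out each library in turn, run as ratios of means with no test for the 17 members that kept recovered reads in both groups, changed the sign of *Aldh8a1* (-0.42 to 1.01) and *Akr1cl* (-0.42 to 0.75), neither of them called, and gave -3.72 to -2.66 for *Aldh1a7*. Depth limits the genes with few reads, and 6 members lay under 3 counts per library in both groups. No paired analysis was possible because the table carries no values by replicate number.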
